A study of Pimephales promelas with 20 samples.

Results

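Of the 2480 piRNA reference entries with a row in either deposited strand table, 129 had a row in both tables, and these 129 entries are described here. They were chosen by their identifiers alone. They made up 6.37% of the 2025 entries of the forward table and 22.1% of the 584 entries of the reverse table, whereas 1896 entries stood in the forward table alone and 455 in the reverse table alone. The libraries held small RNA of whole fathead minnow (Pimephales promelas) larvae, a cyprinid common in aquatic toxicology, and the study was a search for biomarkers of exposure to 17α-ethinylestradiol (EE2). EE2 is a synthetic estrogen that activates estrogen receptors. Control larvae were kept in water with 0 ng/L and exposed larvae in water with 10 ng/L EE2, both without water exchange for 48 h from 48 h after hatching, and both were sampled at 96 h after hatching. The piRNA columns covered 8 control libraries (replicates 1, 2, 3, 4, 6, 7, 9 and 10) and 7 EE2 libraries (replicates 1, 4, 5, 6, 7, 8 and 9). The labels give no strain and no sex, and neither the number of larvae per library nor the number of vessels per group. The p-values therefore speak of the spread among libraries, which may be partly technical.

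PIWI-interacting RNAs (piRNAs) are small RNAs bound by PIWI proteins, and in animals they are best known for silencing transposable elements in the germ line. In zebrafish, the PIWI proteins Ziwi and Zili carry piRNAs in the gonad. In the ping-pong cycle, a PIWI protein cuts a transcript opposite a bound piRNA, and the cut transcript becomes a piRNA of the opposite strand, so that a locus can yield piRNAs from both strands. The reads here were mapped to zebrafish (Danio rerio) piRNA sequences. The tables are marked F and R. These letters are read here as the forward and reverse strands of the reference piRNA, a reading that the labels do not spell out. A reverse read in this sense is complementary to the catalogued zebrafish piRNA, and its strand relative to a transposon or gene was not determined. The tables hold no tissue markers, so the labelled whole larva could not be checked, and in whole larvae fewer cells with piRNAs and fewer piRNAs per cell cannot be told apart. Sequences and coordinates of the entries were not used here.

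Library totals ran from 1019271 to 3082752 counts in the forward table and from 56993 to 170677 in the reverse table. The 129 entries held 3.39% of all forward reads and 5.76% of all reverse reads. Their forward totals over the 15 libraries ran from 95 reads for piR-dre-1143443, which had 279 reverse reads, to 293014 for piR-dre-10286, with a median of 1515 reads against 817 for all forward entries. Their reverse totals ran from 73 reads for piR-dre-4732, which had 1910 forward reads, to 8509 for piR-dre-30830, with a median of 251 against 330 for all reverse entries. No row of either table had a total under 73 reads, so the tables hold entries above some minimum. An entry with fewer reads on its second strand would stand in one table alone, as did piR-dre-58796 with 73 forward reads and piR-dre-1302234 with 80 reverse reads. A few entries held much of the signal: piR-dre-10286 alone had 27.9% of the forward reads on the 129 entries, the 10 most abundant entries had 55.3% of these forward reads, and the 10 entries with most reverse reads had 45.2% of the reverse reads.

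The reverse share, the reverse reads of an entry as a percentage of its forward and reverse reads together, was computed in each library with at least 10 such reads. In 113 of the 129 entries every library reached this depth. Mean shares over the libraries covered almost the whole scale, from 0.134% for piR-dre-10286 to 93.6% for piR-dre-28795, with a median of 22.7% and quartiles of 5.03% and 47.9%. In 32 entries the mean share was below 5%, in 25 it lay between 5% and 20%, in 23 between 20% and 40%, in 30 between 40% and 60%, in 12 between 60% and 80%, and in 7 above 80%. Over all libraries, 97 entries had more forward and 32 more reverse reads. The side was fixed in some entries and not in others: 67 had more forward reads in every library and 9 had more reverse reads in every library. The remaining 53 had more forward reads in some libraries and more reverse reads in others.

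**Figure D1:**
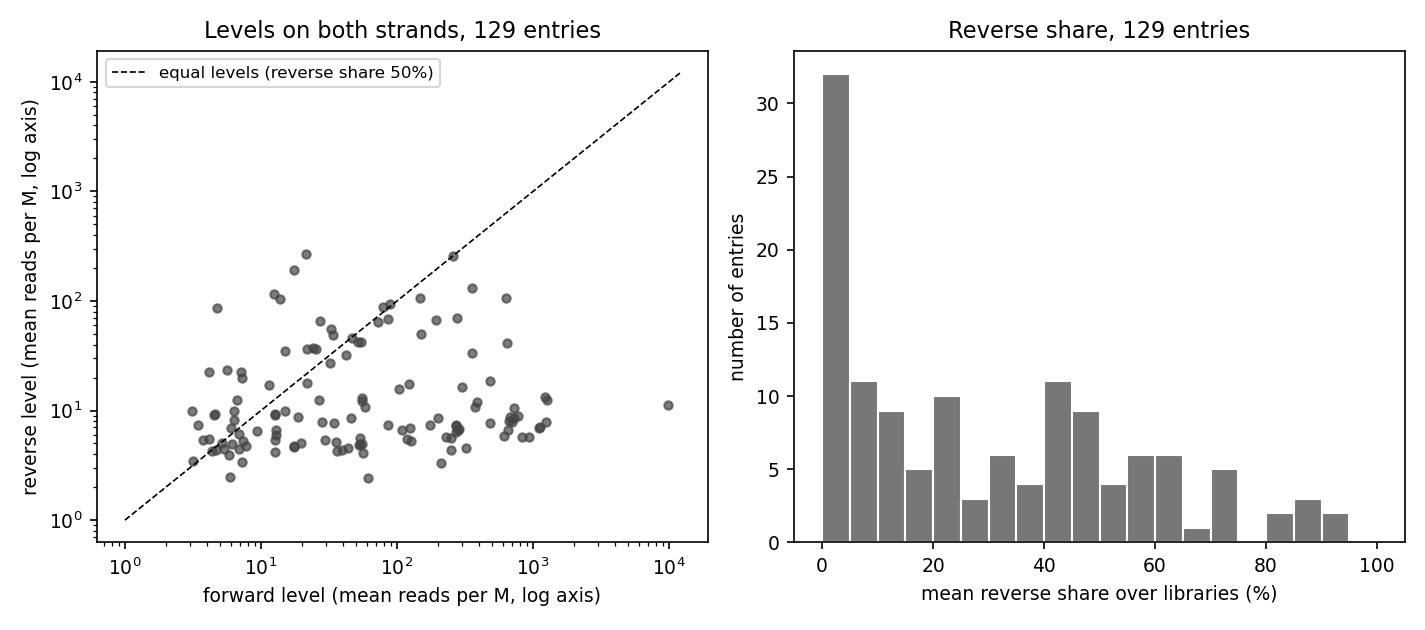
Left, mean forward against mean reverse level of the 129 entries (reads per M, log axes), 1 point per entry, with a dashed line at equal levels; right, the number of entries by mean reverse share (percent). The reverse levels span a narrower range than the forward levels, piR-dre-10286 stands alone at the highest forward level, and 32 entries lie below a share of 5%.

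Levels are given as reads per M, that is per 1000000 reads of the forward piRNA total of the library, on both strands. Reads were not divided by length, since a read was taken to cover a whole piRNA, which was not checked. The median forward level was 549 reads per M in entries with shares below 5%, 57.9 from 5% to 20%, 17.4 from 20% to 40%, 12.7 from 40% to 60%, 6.90 from 60% to 80% and 12.4 above 80%. The median reverse level in the same classes was 7.12, 6.96, 6.58, 13.1, 16.1 and 105 reads per M. Forward and reverse reads enter both the class and the level, so these medians are a description: the forward median is lower in each class up to a share of 80%, and the reverse median is highest above 80%. Across the 129 entries, Spearman's rho of the mean share with the level over both strands was -0.65, and the forward reads enter both measures. The choice of entries enters too, since each needed a row in both tables and no row had under 73 reads. A very low or very high share was therefore possible only with many reads on the larger strand. The part of this minimum in the rho and in the class medians was not tested.

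The abundant end was almost wholly forward. The 10 entries with most reads were piR-dre-10286, piR-dre-1, piR-dre-9, piR-dre-2, piR-dre-16063, piR-dre-19050, piR-dre-55720, piR-dre-6614, piR-dre-4 and piR-dre-3, and their mean shares lay between 0.134% and 1.53%. Among them piR-dre-1, piR-dre-9, piR-dre-2, piR-dre-16063 and piR-dre-19050 followed each other closely on the forward strand, and so did piR-dre-4 and piR-dre-3. Whether these entries shared reads was not tested, so the 10 are not independent values. The lowest shares belonged to piR-dre-10286 (0.134% ± 0.183, SD, n = 15), piR-dre-55720 (0.641% ± 0.399), piR-dre-6614 (0.686% ± 0.432), piR-dre-9 (0.776% ± 0.486) and piR-dre-16063 (0.800% ± 0.580). In piR-dre-10286 the control libraries ran from 0.023% through a median of 0.043% to 0.641%, and the EE2 libraries from 0.010% through 0.045% to 0.422%. Its lowest share came from 2 reverse reads among 20615 in EE2 replicate 4 and its highest from control replicate 2 (Wilson 95% interval 0.527% to 0.780%, counting error only). The groups overlapped over nearly their whole ranges. Below the highest library of each group, the next was at 0.299% in controls and 0.176% after EE2, also above the medians. The forward reads of this entry were steady (SD 0.46 on the log2 scale over the 15 libraries) and its reverse reads, 348 in all, were not (SD 1.47).

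The 5 entries with the highest shares had more reverse reads in all 15 libraries. They were piR-dre-28795 (93.6% ± 5.00, SD, n = 15), piR-dre-30830 (90.4% ± 8.54), piR-dre-33651 (89.97% ± 8.12), piR-dre-66662 (88.2% ± 9.85) and piR-dre-33862 (86.7% ± 10.2). In piR-dre-28795, with 141 forward and 2789 reverse reads in all, the control libraries ran from 84.8% through a median of 96.4% to 98% and the EE2 libraries from 82.4% through 94.1% to 97.8%. In piR-dre-30830, the entry with most reverse reads, they ran from 66.5% through 89.7% to 97.5% in controls and from 87.7% through 94.9% to 98.7% after EE2. The lowest library was control replicate 3 for piR-dre-30830, piR-dre-33651 and piR-dre-33862, EE2 replicate 1 for piR-dre-28795 and EE2 replicate 9 for piR-dre-66662. The other entries with mean shares above 80% were piR-dre-686752 (80.3% ± 11.9) and piR-dre-1162531.

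Near an even split, the mean hid large differences between libraries. The entries nearest 50% were piR-dre-345187 (49.8% ± 12.1, SD, n = 15), piR-dre-33591 (49.35% ± 20.5), piR-dre-1205847 (51.0% ± 10.4), piR-dre-29926 (51.1% ± 12.0) and piR-dre-52222 (51.3% ± 16.7). In piR-dre-345187 the control libraries ran from 33.9% through a median of 50.6% to 67.5% and the EE2 libraries from 33.9% through 45.9% to 65.8%, and it had more reverse than forward reads in 6 of the 15 libraries. In piR-dre-52222, with 8178 forward and 8089 reverse reads in all, the share was 25.9% in control replicate 6 (Wilson 95% interval 22.2% to 29.95%) and 82.6% in control replicate 7 (80.3% to 84.7%, from 202 forward and 960 reverse reads). These extremes were both in the control group and enclosed every EE2 library.

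**Figure D2:**
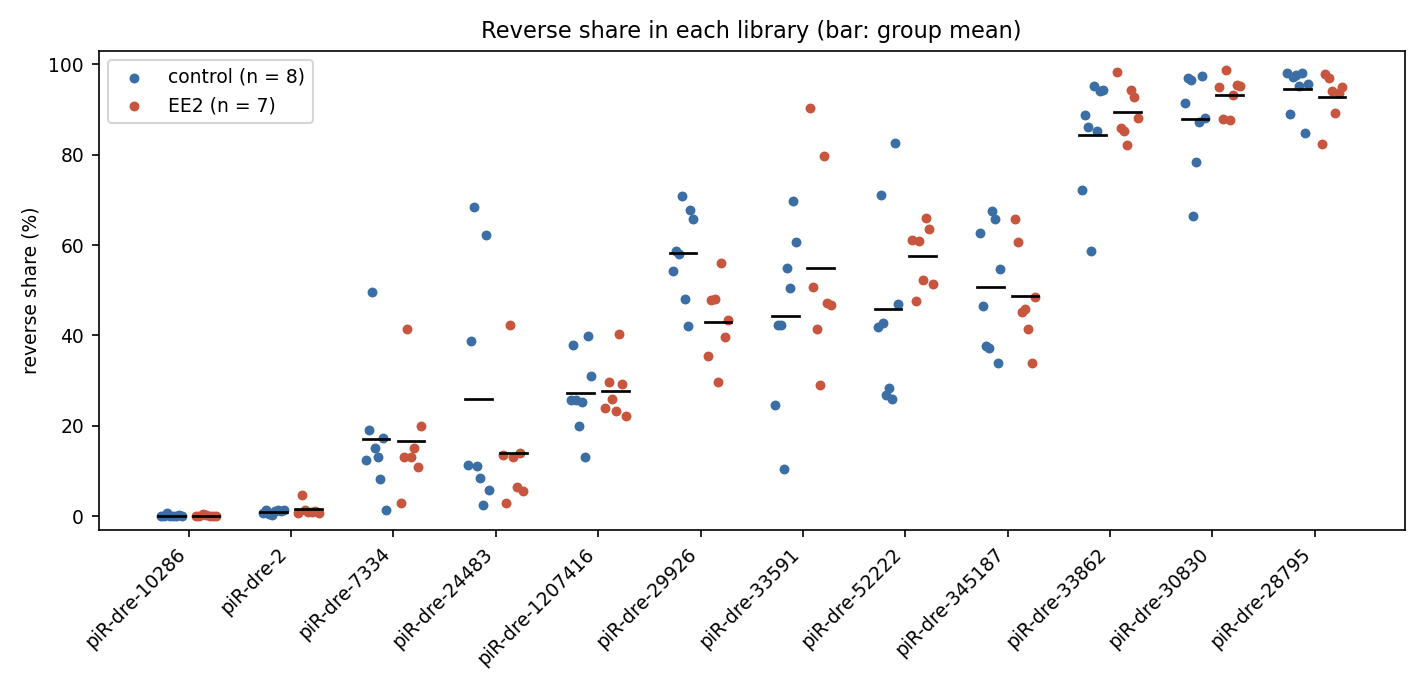
Reverse share (percent) in each of 8 control and 7 EE2 libraries for 12 of the named entries, chosen to span the scale, with 1 point per library and a bar at the group mean. Control and EE2 points overlap in every entry shown, and piR-dre-33591, piR-dre-24483 and piR-dre-52222 spread over most of the scale.

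The share varied between libraries by more than the counting error of the reads. Over the 113 entries with at least 10 reads in every library, the median SD of the share was 8.89 percentage points, where the binomial counting error of the same reads would give a median SD of 2.68 points. The SD was 2.88 times the counting SD in the median entry, over 2 times in 88 entries, over 3 times in 52, and below it in 1. The ratio ran from 0.912 to 10.9. By class of mean share, the median SD was 14.1 points from 40% to 60%, beside a median counting SD of 7.47 points. These medians were 1.42 and 0.429 points below 5%, and 8.54 and 2.18 points above 80%. The larger SD in points near an even split thus came with a larger counting SD. The libraries carried no molecular identifiers as far as the labels say, so reads may be copies of the same molecule and the counting error is a lower limit of the technical error. Among these 113 entries the reverse level varied more than the forward level in 86 and less in 27. The median SD over libraries on the scale log2(reads per M + 0.5) was 0.63 for forward and 0.83 for reverse levels. Depth differed between the strands, with median totals of 1515 forward and 251 reverse reads over the 129 entries. Counting error is larger at fewer reads, and its part in these SDs was not tested. Over all 129 entries the medians were 0.69 and 0.86, and they were 0.76 and 0.82 over all entries of the forward and the reverse table.

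**Figure D3:**
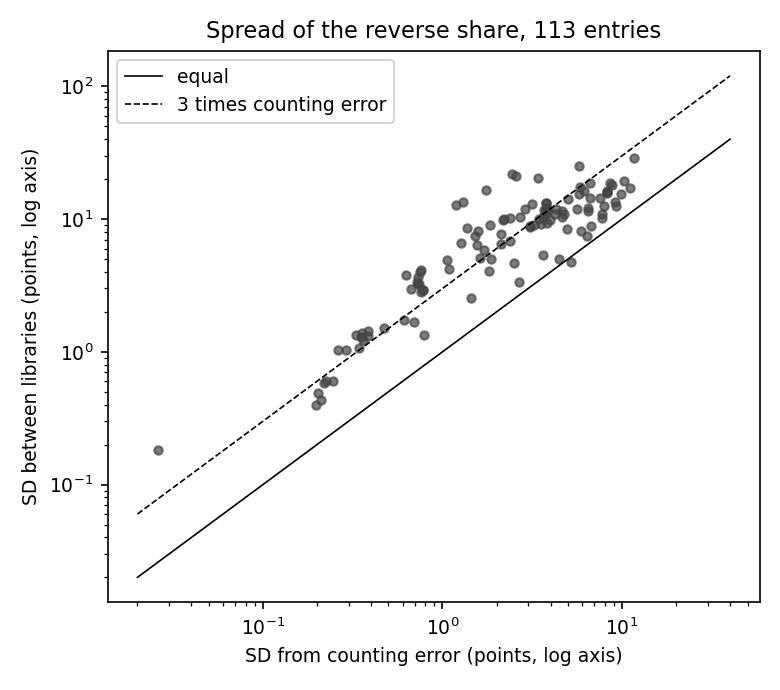
SD of the reverse share over the 15 libraries against the SD expected from binomial counting error (both in percentage points, log axes), 1 point per entry for the 113 entries with at least 10 reads in every library. The solid line marks equal SDs, with 1 entry below it, and the dashed line 3 times the counting SD, with 52 entries above it.

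The largest SDs of the share belonged to piR-dre-23626 (43.9% ± 28.6, SD, n = 15), piR-dre-18854 (31.4% ± 25.2), piR-dre-24483 (20.4% ± 21.7), piR-dre-81445 (47.9% ± 21.1) and piR-dre-33591. The first, piR-dre-23626, had 287 reads in all, and its share ran from 0 of 15 reads in control replicate 6 (Wilson upper bound 20.4%) to 88.9% in control replicate 3 (67.2% to 96.9%). In piR-dre-33591 the share was 10.4% in control replicate 3 (8.75% to 12.4%, from 970 forward and 113 reverse reads) and 90.3% in EE2 replicate 1 (87.5% to 92.4%, from 55 forward and 510 reverse reads). The same libraries were lowest and highest for piR-dre-81445, at 9.65% (8.33% to 11.2%) and 86.6% (84.1% to 88.7%). In piR-dre-24483 the share was 2.38% in control replicate 6 (1.02% to 5.45%) and 68.3% in control replicate 2 (64.9% to 71.6%). In piR-dre-18854 it was 7.23% in control replicate 3 and 84.4% in EE2 replicate 5 (79.3% to 88.4%). The ratio to counting error was highest in piR-dre-7334, whose share was 1.41% in control replicate 9 (1.12% to 1.76%, from 5194 forward and 74 reverse reads) and 49.7% in control replicate 2 (47.4% to 51.9%, from 974 forward and 961 reverse reads).

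The extreme libraries were not spread evenly. Of the 113 entries, 20 had their highest share in EE2 replicate 4, 15 in EE2 replicate 1 and 14 in EE2 replicate 7, and 26 had their lowest in EE2 replicate 6, 20 in control replicate 6 and 18 in control replicate 3. Over all piRNA reads the reverse share was 4.28%, 6.04% and 6.51% in the first 3 libraries. In the last 3 it was 4.13%, 4.21% and 5.57%. Control replicate 6 and EE2 replicate 7 had the lowest reverse totals, 56993 and 71010 reads. The part of library-wide share and depth in these extremes was not tested. Entries also followed each other in their counts. On the forward strand, 47 of the 129 entries fell into 13 groups linked by a correlation of log2 levels above 0.98 over the 15 libraries, the largest of 7 entries, and on the reverse strand 56 fell into 19 groups, the largest of 6. Of the 8256 pairs of entries, 76 were alike in this way on the forward strand and 63 on the reverse strand. The 23 pairs alike on both strands were 30.3% of the first and 36.5% of the second. Counted by groups, there were 95 distinct forward and 92 distinct reverse profiles. Whether reads were shared among them was not tested, and their values are not independent of each other. The same counts over all entries of each strand are not given here, so such groups are not shown to be particular to the 129.

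Examples show both kinds of grouping. The entries piR-dre-4, piR-dre-6, piR-dre-27, piR-dre-7, piR-dre-3 and piR-dre-22 had 20744 to 24448 forward reads each and 225 to 346 reverse reads each. Their shares lay between 5.13% and 6.34% in EE2 replicate 4 and between 0.250% and 2.51% in the other 14 libraries. A group of similar abundance, piR-dre-1, piR-dre-2, piR-dre-9, piR-dre-16063 and piR-dre-19050, had 34774 to 39368 forward reads each. Within it, piR-dre-2 had 132 reverse reads in EE2 replicate 4, a share of 4.76% (Wilson 95% interval 4.02% to 5.61%), whereas the lowest share in the group in that library was 0.479%. Like forward profiles over the libraries also went with unlike shares: piR-dre-25615, piR-dre-81445, piR-dre-33591 and piR-dre-66261 followed each other on the forward strand and had mean shares from 2.70% to 49.35%. Their forward totals differed too, from 2723 to 11686 reads. On the reverse strand, piR-dre-1211974, piR-dre-1211980, piR-dre-119279, piR-dre-251633, piR-dre-261063 and piR-dre-1228600 had 163 to 186 reads each, and their forward totals ran from 156 to 18720.

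In some entries the counts on one strand followed those of another entry on the opposite strand. These pairs were chosen by their values and carry no test. The forward level of 6 of the 129 entries followed the reverse level of another entry at a correlation above 0.98. The reverse level of 2 followed the forward level of another entry, itself among the 129, and 8 entries took part in 1 of the 2 ways. The same counts over all entries are not given here, so such partners are not shown to be particular to the 129. For piR-dre-10286, with 293014 forward reads, the partner was piR-dre-1242964, with 236563 reverse reads, and the ratio of partner to entry was 0.717 to 0.859 in the single libraries (r = 0.99). For piR-dre-17675, with 3512 forward reads, the partner was piR-dre-28795, the entry with the highest reverse share, with 2789 reverse reads and a ratio of 0.684 to 0.857 (r = 0.99). The forward levels of piR-dre-24682 and piR-dre-29926 both followed the reverse level of piR-dre-32910. In no entry did the forward and reverse levels of the entry itself follow each other so closely. In the whole of both tables, 27 reverse rows were identical to a forward row in every library, and none of these pairs involved 1 of the 129 entries.

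Within an entry, forward and reverse levels were correlated about as weakly as the forward level of an entry with the reverse level of another. The median Pearson r of the log2 levels over the 15 libraries was 0.06, with quartiles of -0.16 and 0.29 and a range of -0.71 to 0.72. The r was above 0 in 75 of 129 entries, above 0.5 in 6 and below -0.5 in 3. For the 16512 ordered pairs of an entry's forward level with the reverse level of another entry, the median was 0.04 with quartiles of -0.16 and 0.24. An r above 0.5 was found in 4.65% of the entries and in 5.83% of those pairs. Levels on both strands shared the forward library total as denominator. In 101 entries both strands had a mean of at least 10 reads per library, and there the median was 0.04, against 0.03 for the pairs. Of these 101, 6 (5.94%) had a permutation p below 0.05, 4 with a positive and 2 with a negative r, and none after Benjamini-Hochberg adjustment over the 101. With Spearman's rho 5 had such a p and none after adjustment. In the 11 entries with a mean of at least 100 reads on each strand the median r was 0.06. The family holds every entry for which the relation can be computed at this depth.

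**Figure D4:**
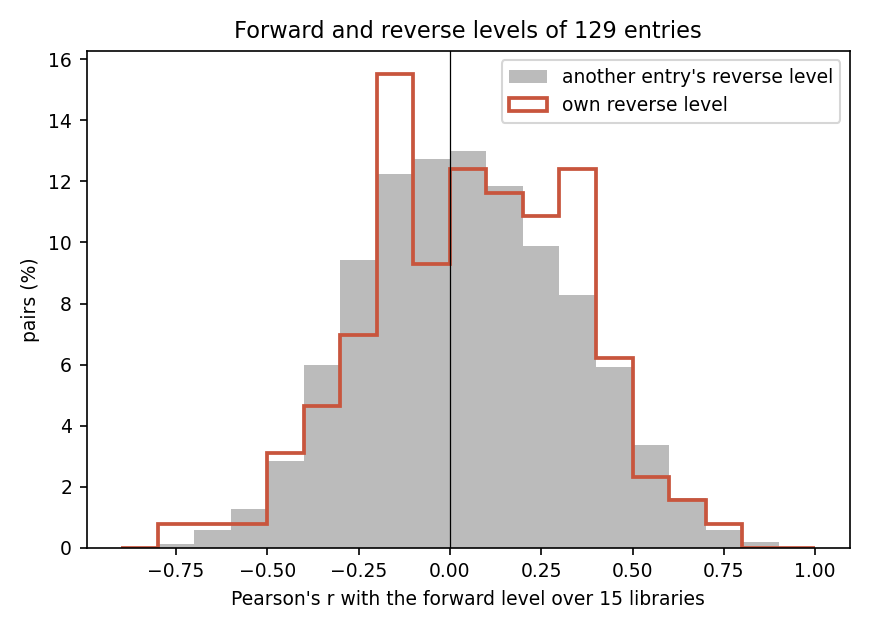
Distribution, in percent of pairs, of Pearson's r over the 15 libraries between the forward level (log2(reads per M + 0.5)) of an entry and its own reverse level (outline) or the reverse level of another entry (filled). Both centre near 0, with medians of 0.06 and 0.04.

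The highest correlations were modest and partly rested on few libraries. The highest belonged to piR-dre-1170066 (r = 0.72, permutation p = 0.0029, adjusted p = 0.233; rho = 0.54, p = 0.0408). Its forward level was 4.87 reads per M in EE2 replicate 6 and its reverse level there 8.43, the lowest of the 15 libraries on each strand, and without the 2 libraries farthest from the median forward level its r was 0.44. The second was piR-dre-27236 (r = 0.69, permutation p = 0.0046, adjusted p = 0.233; rho = 0.65, p = 0.0108), with r = 0.61 within controls, 0.79 within EE2 libraries and 0.55 without the 2 farthest. Control replicate 2 had the highest level of piR-dre-27236 on both strands, at 324 forward and 181 reverse reads per M. The next were piR-dre-27 (r = 0.56), piR-dre-6 (r = 0.52) and piR-dre-4741 (r = 0.49, rho = 0.15), and piR-dre-4741 was at r = 0.03 without its 2 farthest libraries. At the other end stood piR-dre-4606 (r = -0.60, permutation p = 0.0173, adjusted p = 0.583; rho = -0.39, p = 0.157). Control replicate 2 had its most forward reads, 890, and 0 reverse reads. Its r was -0.80 within controls, 0.33 within EE2 libraries, and -0.24 without control replicates 2 and 3. The other low values belonged to piR-dre-10138 (r = -0.54, rho = -0.63), piR-dre-23830 (r = -0.50, rho = -0.46), piR-dre-16 (r = -0.48, rho = -0.35) and piR-dre-28681 (r = -0.41, rho = -0.37). The first of these was at -0.34 without its 2 farthest libraries.

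Summed over the 129 entries, the reverse share was 8.78% ± 2.41 (SD, n = 8) in controls, from 4.79% in control replicate 3 to 12.5% in control replicate 7, and 9.34% ± 0.956 (n = 7) after EE2, from 7.85% to 10.5%. The EE2 range lay inside the control range. The reads on all other entries had reverse shares of 5.41% ± 0.875 in controls and 5.11% ± 0.990 after EE2. The 129 entries had 37598 ± 11265 forward reads per M in controls, highest at 57152 in control replicate 3, and 29579 ± 4653 after EE2, and their reverse reads per M were 3430 ± 739 and 3057 ± 609. These sums use library totals without the TMM normalisation factors of the fits below. The factors ran from 0.751 to 1.29 in controls and from 0.808 to 1.09 in EE2 libraries. The difference between the group means therefore depends on the scaling. The sum is governed by the most abundant entries: without the 3 with most reads its reverse share was 12.6% ± 3.46 in controls and 14.7% ± 3.03 after EE2. No p-value was computed for sums over the entries.

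On the forward strand no entry passed the test for EE2 against control (edgeR quasi-likelihood test, Benjamini-Hochberg adjusted p over the 1701 forward entries tested). Of the 129 entries, 116 passed the filter on low counts and 0 were called, where 0 of all 1701 were called (percent called 0). At an unadjusted p below 0.05 there was 1, piR-dre-52222, against 5.47% of all forward entries tested. DESeq2 called 0 of the 116 and 3 of all 1701, and limma voom 0 of each. At that unadjusted p DESeq2 had 6 of the 116 (5.17%) against 10.1% of all, and limma voom 0 against 5.58%. The median log2 fold change was -0.12 for the 116 and 0.05 for all 1701, and 79 of the 116 (68.1%) had a negative value, against 45.7% of all. With library totals alone, without TMM factors, the medians were -0.34 and -0.19 and the negative shares 72.4% and 66.0%. Entries that followed each other on the forward strand count singly here, with 95 distinct forward profiles among the 129 entries. In the main fit the profile groups of 7, 7, 6 and 5 entries were negative in every entry, and smaller groups went either way. These percentages are therefore not of independent values. In no entry did the ranges of the groups fail to overlap (0% of all forward entries higher and 0.0588% lower). The 95% interval of the log2 fold change lay within a 2-fold change in either direction for 72 of the 116 and within a 4-fold change for 114.

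The forward entries with the smallest p-values all had lower means after EE2, and none passed adjustment (lowest edgeR adjusted p = 0.763). Normalised levels (TMM-normalised counts per M, CPM) of piR-dre-52222 ran from 145 through a median of 287 to 581 in controls and from 116 through 187 to 305 after EE2. Its means were 295 ± 144 CPM (SD, n = 8) and 183 ± 62.7 (n = 7). Its log2 fold change was -0.68 ± 0.30 (SE; edgeR p = 0.0378, adjusted p = 0.763), and 6 of 7 EE2 libraries were below the control median. The levels of piR-dre-1207416 ran from 298 through 361 to 478 CPM in controls and from 245 through 289 to 415 after EE2, a log2 fold change of -0.36 ± 0.18. The other 3 had 1 high control library each. Control replicate 4 had 612 CPM of piR-dre-22358 against a control median of 173 and an EE2 median of 90.4. Control replicate 3 had 1122 CPM of piR-dre-1143071 against medians of 224 and 197. Control replicate 9 had 2552 CPM of piR-dre-7334 against medians of 471 and 309. Their log2 fold changes were -0.90 ± 0.44, -0.73 ± 0.37 and -0.90 ± 0.47 with all libraries, and -0.45, -0.16 and -0.33 without the high library of each.

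On the reverse strand, too, no entry passed. Of the 129 entries, 94 passed the filter and 0 were called among the 432 reverse entries tested (percent called 0; edgeR, adjusted p), and DESeq2 and limma voom also called 0 of them. An unadjusted p below 0.05 was found for 3 entries, against 3.24% of all reverse entries tested. Of the 3, 2 were higher after EE2 (1.16% of all entries tested) and 1 was lower (2.08%). With DESeq2 5 had such a p (5.32%, against 5.09% of all), and with limma voom 9 (9.57%, against 4.86% of all). The median log2 fold change was 0.06 for the 94 and 0.11 for all 432, and 43.6% and 37.7% had negative values. With library totals alone the medians were -0.11 and -0.09, so the sign of the median turned with the scaling, and 62.8% and 63.4% were negative. Entries with like reverse profiles count singly here too, with 92 distinct reverse profiles among the 129 entries. The groups' ranges overlapped in every entry (0% of all reverse entries did not overlap). The 95% interval lay within a 2-fold change for 28 of the 94 and within a 4-fold change for 83. In all, 86 entries were tested on both strands and 5 on neither.

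Of the 5 reverse entries with the smallest p-values, 1 was lower and 4 were higher after EE2 in the mean. The reverse level of piR-dre-66662, an entry of mostly reverse reads, ran from 101 through a median of 137 to 183 CPM in controls and from 42.2 through 74.9 to 112.5 CPM after EE2. Its means were 139 ± 33.0 (SD, n = 8) and 76.7 ± 28.2 CPM (n = 7). Its log2 fold change was -0.85 ± 0.24 (SE; edgeR p = 0.00254, adjusted p = 0.761), and all 7 EE2 libraries were below the control median. The 4 higher entries, piR-dre-66261, piR-dre-33591, piR-dre-686752 and piR-dre-33862, all had their highest level in EE2 replicate 1. Of these, piR-dre-33591 and piR-dre-33862 fell in the same reverse profile group. The entry piR-dre-66261 shared a forward profile group with piR-dre-33591, and the median reverse correlation in that group was 0.90. These are therefore not independent results. The reverse level of piR-dre-66261 ran from 8.35 through 22.0 to 28.6 CPM in controls and from 16.9 through 28.9 to 152 after EE2, a log2 fold change of 1.27 ± 0.42 (edgeR p = 0.00815, adjusted p = 0.761). For piR-dre-33591 the ranges were 22.6 through 51.5 to 66.2 and 33.7 through 60.7 to 263 CPM, a log2 fold change of 0.99 ± 0.40. For piR-dre-686752 and piR-dre-33862 the log2 fold changes were 0.74 ± 0.35 and 0.73 ± 0.39. Without EE2 replicate 1 the log2 fold changes of these 4 entries, in the same order, were 0.66, 0.47, 0.47 and 0.27, and that of piR-dre-66662 was -0.97.

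**Figure D5:**
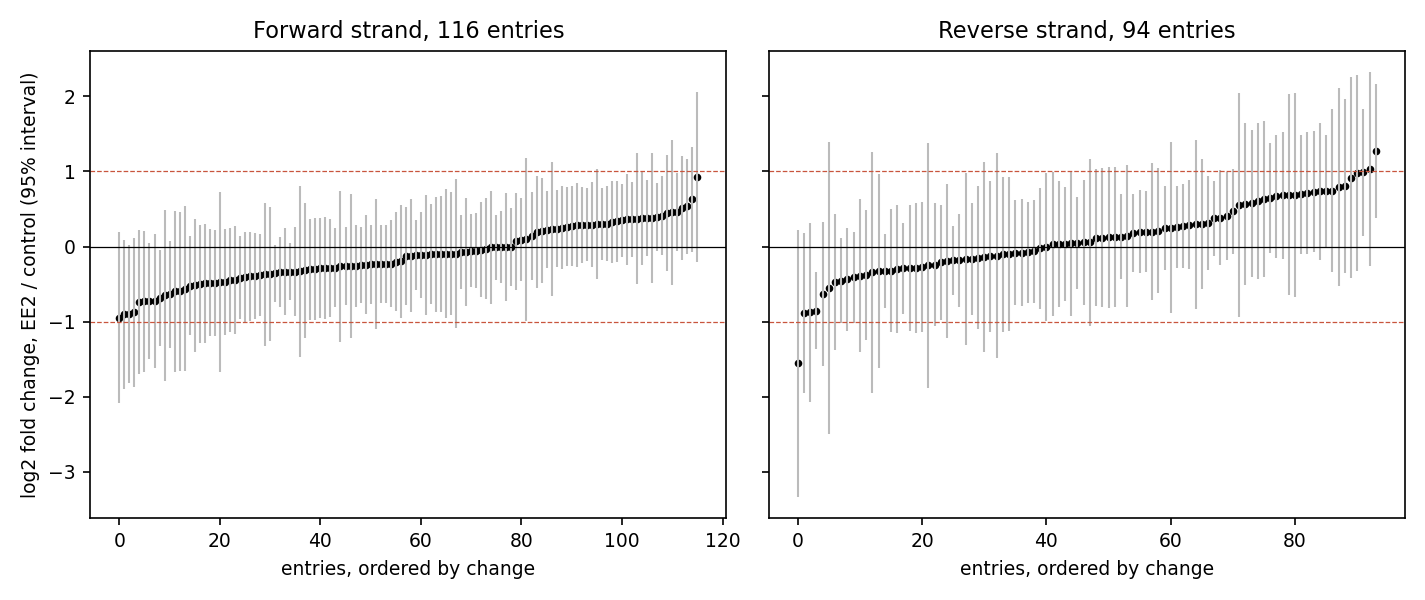
Log2 fold change (EE2 against control, edgeR) of the 116 entries tested on the forward and the 94 tested on the reverse strand, ordered by change, with 95% intervals as grey lines and dashed lines at a 2-fold change. On the reverse strand 28 of 94 intervals lay within the dashed lines and on the forward strand 72 of 116, and no entry passed the adjusted threshold.

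No entry passed the test of the reverse share between the groups. A share was testable in 126 entries, which are all those with a share in at least 5 libraries of each group. Each was compared by a two-sided exact permutation test over its libraries with a share. For the 113 entries with a share in all 15 libraries there were 6435 assignments of 8 and 7 libraries (smallest possible permutation p = 0.000155). The other entries had fewer libraries and fewer assignments. An unadjusted p below 0.05 was found for 7 (5.56%), 1 higher and 6 lower after EE2, where 6.3 would be expected with no difference, and none passed Benjamini-Hochberg adjustment over the 126 (lowest adjusted p = 0.587). The edgeR test of strand by EE2 called 0, with 5 at an unadjusted p below 0.05. The mean share was higher after EE2 in 80 of the 126, with a median difference of 0.642 percentage points. Entries that followed each other count singly in this number as well. The difference was within 10 points for 110 entries, a count of point estimates without intervals. A mean share below 5%, as in 32 of the 129 entries, left little room for a larger difference. The groups' ranges overlapped in all 126 (0% did not overlap). The largest difference, 24.2 points lower after EE2, belonged to the thinly covered piR-dre-23626.

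The 5 entries with the smallest p-values for the share all had lower shares after EE2. For piR-dre-482730, with 416 reads in all, control shares ran from 60.9% through a median of 71% to 84.2% and EE2 shares from 25% through 52.9% to 76.7% (means 72.3% ± 8.07 and 53.0% ± 15.8, exact permutation p = 0.0073, adjusted p = 0.587). For piR-dre-29926 they ran from 42.0% through 58.4% to 70.8% and from 29.7% through 43.4% to 56.1% (means 58.2% ± 9.89 and 42.9% ± 8.78, exact permutation p = 0.00932, adjusted p = 0.587), and all 7 EE2 libraries were below the control median. For piR-dre-24682, whose levels followed those of piR-dre-29926 on both strands, the means were 53.2% ± 11.2 and 37.8% ± 10.3, so these are not independent results. For piR-dre-550676 the means were 36.8% and 20.7%. For piR-dre-1162453 they were 21.1% ± 4.09 and 15.7% ± 4.50, with all 7 EE2 libraries below the control median.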

How the data were processed

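Per the labels' design text, small RNA reads were mapped to zebrafish piRNA sequences. Bowtie 1.2.3, edgeR 3.26.8, limma 3.40.6 and bcl2fastq 2.19.1 are named, without settings, per the submitters' processing notes. How mismatches and multiple matches were handled, and the reference version: not given in the sources used here. Raw counts of reads per piRNA entry, not normalized by the authors, make up the deposited tables of 15 libraries. The labels list 20 libraries, and those without a piRNA column were not analysed here.

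Whole tables were tested with edgeR 4.0.16 (R 4.3.3): filterByExpr with a minimum count of 10, TMM factors and the robust quasi-likelihood test. Calls needed a Benjamini-Hochberg adjusted p under 0.05. Reverse counts used forward library sizes and TMM factors. Standard errors came from the F statistic. DESeq2 1.42.0 and limma 3.58.1 (voom) were alternatives. Shares used exact permutation of library labels, correlations used log2(reads per M + 0.5) and 100000 permutations (scipy 1.17.1). Intervals for single libraries are Wilson 95% and cover counting error only. The edgeR fits were also run on simulated data with known changes. The share of those changes recovered is not given here, so the counts of 0 called cannot be weighed by it. No 2 libraries of a group agreed within sampling noise (lowest chi-square per degree of freedom 46.8).

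Entries were named by rank: the 10 most abundant, and the first 5 by highest, lowest, most even and most variable share, by smallest p in each test and by highest and lowest r. The entries and tests were chosen with earlier results of these data known. Profile groups and opposite-strand partners were chosen after their values were seen.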

Additional observations from a re-analysis of the deposited data

Results flagged for a closer look

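Of 72 sets of libraries compared for the named entries (shares and log2 levels within controls and within EE2 libraries), 6 held a library far from the others by Dixon's criterion. In independent sets with a normal spread chance gives about 1 in 20, or 3.6. The named entries were picked by their values in these data, some for a large SD or a small p, and some followed each other. The 3.6 is therefore no exact chance count here. The reverse share of piR-dre-10286 was 0.641% in control replicate 2, where the next control library had 0.299%, and 0.422% in EE2 replicate 5, where the next EE2 library had 0.176%. The share of piR-dre-2 was 4.76% in EE2 replicate 4, with 1.39% in the next. The share of piR-dre-16063 was 2.41% in EE2 replicate 7, with 1.24% in the next. The share of piR-dre-24483 was 42.3% in EE2 replicate 5, with 14.1% in the next. The forward level of piR-dre-1143071 on the log2 scale was 10.50 in control replicate 3, with 8.43 in the next.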

How the results depend on the processing

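No entry of the 129 was called for EE2 on either strand or for its share under any alternative run: DESeq2, limma voom, other scaling, no filter, minimum reads of 5 or 20, log odds, the edgeR strand by EE2 term, the replicate block, or leaving out each library. Some of these runs did call entries outside the 129. On the forward strand DESeq2 called 3 of 1701 entries, and 6 of 2025 without the filter. There edgeR called 2 of 2025 without the filter and 1 of 1745 without EE2 replicate 1. On the reverse strand edgeR and DESeq2 without the filter called 2 of 584 each. DESeq2 and limma voom without the filter were added after seeing the data. Counts at an unadjusted p below 0.05 moved: on the forward strand there were 0 (of all forward entries 4.40%) when EE2 replicate 7 was left out, 10 when EE2 replicate 5 (all, 8.05%) or 6 (all, 13.2%) was, and 14 with library totals alone (12.1%, all 9.88%). On the reverse strand there were 1 (0.990%, all 4.29%) when EE2 replicate 1 was left out and 11 (10.4%, all 6.28%) when EE2 replicate 5 was, and for the share from 5 to 10. The median share stayed between 21.8% and 24.0% without single libraries. The median forward-reverse r was 0.01 to 0.11 without single libraries, -0.01 with each strand's own total, 0.01 within controls and 0.16 within EE2 libraries. Without the 3 most abundant entries the reverse share of the summed reads was 13.6% in place of 9.04%; the alternative removes forward-heavy entries by construction. The cause of the other changes was not tested. No pairing of libraries by replicate number was seen (correlations of deviations -0.31, 0.17, -0.19, 0.12 and 0.21 for numbers 1, 4, 6, 7 and 9, and no control library was nearest to its own number). These 5 correlations carry no test and cannot exclude a pairing. With the replicate block 0 entries were called, with 0 forward, 1 reverse and 0 share at an unadjusted p below 0.05; the sign-flip test of the share over 5 pairs cannot go below 0.0625. Among the 5 entries with the smallest p-values in each test, no fold change or share difference in that test changed sign. The signs of the other named entries under the alternatives are not given here. The named correlations kept their sign under the 5 alternatives run for them over all libraries (other scaling, another pseudocount and Spearman's rho). They were not rerun without each single library, and within the groups the r of piR-dre-4606 was negative in controls and positive in EE2 libraries. The median r changed sign with own strand totals, and the median reverse fold change did with library totals alone (0.06 to -0.11). Of the 10 named correlations, 4 of the 6 with a p below 0.05 lost it, and 3 others gained one, under at least 1 alternative. Depth limits the 16 entries without 10 reads in every library.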
